A study of Mus musculus with 3 samples.

Results

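The blood vascular endothelial cells of mouse skin, the cells that line arteries, capillaries and veins, were followed in the libraries labelled control and metformin. They were chosen by their counts of unique molecular identifiers (UMIs): a cell had to show at least 3 of the 7 genes Pecam1, Cdh5, Emcn, Kdr, Egfl7, Cldn5 and Esam. It also had to hold fewer than 2 UMIs of the lymphatic genes Prox1, Mmrn1 and Flt4 together, no UMI of the leukocyte gene Ptprc, fewer than 30 of Krt5 and Krt14 together, and fewer than 20 of Col1a1, Col3a1 and Dcn together. These limits kept 310 of 23292 cells, 128 of 11554 in the control library and 182 of 11738 in the metformin library. Because the cells were selected on these genes, the levels of the selecting genes are a description and not a result.

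Endothelium forms the wall between blood and tissue. Its cells are held together by VE-cadherin (Cdh5) and claudin-5 (Cldn5), respond to vascular endothelial growth factor through Kdr and Flt1, and take on arterial, capillary or venous character along the vessel tree. In skin the capillaries feed the hair follicles and the fat, the small veins are where leukocytes leave the blood, and endothelium that is exposed to interferon raises antigen presentation genes and guanylate-binding proteins.

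All animals were C57BL/6 mice aged 7 postnatal weeks, and the samples were skin. There was 1 library for each labelled agent, which were control, metformin (an oral drug for diabetes) and Shi-Bi-Man. Expression in the Shi-Bi-Man library was not analysed here. The labels do not give the dose, the route, the skin site, the sex or how many animals each library holds. With 1 library per agent nothing measures the spread between animals, so no test between agents was made. The intervals below are exact 95% intervals that cover counting error only, and animal, library and agent cannot be told apart.

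The control library held 12108 barcodes with a median of 3939 UMIs, and the metformin library 12092 with a median of 6540. The endothelial cells were shallower, with a median of 2624.5 UMIs in control and 3263.5 in metformin, and their counts summed to 400918 and 690696 UMIs. The libraries shared 41 barcodes, none of them an endothelial cell of either library. Levels are given as counts per 1000000 UMIs summed over the cells (CPM), and a ratio is the CPM in metformin over that in control. Where shares of cells with a UMI were compared, every cell was thinned to 1500 UMIs, which left 98 control and 152 metformin cells and dropped 30 of each library.

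The label was checked against endothelial genes that the selection did not use. Of 22 such genes the control cells showed a median of 11 and the metformin cells a median of 13, against a median of 1 in all other cells of each library. Flt1, a receptor for vascular endothelial growth factor, was at 506 and 557 CPM and had no UMI in the lymphatic endothelial cells of either library. Lymphatic cells were selected as the endothelial cells but with at least 2 lymphatic UMIs, and numbered 51 in control and 78 in metformin. Of the lymphatic genes that the selection did not use, Lyve1 had 0 and 1 UMIs and Reln 1 and 1 UMIs in the blood vascular cells. Prox1 had 1 and 1 UMIs, but the selection itself limited this gene. Leukocyte genes other than the excluded Ptprc summed to 14 and 26 UMIs. The 9 genes of the lymphatic list summed to 25 UMIs in control and 134 in metformin, of which 1 cell held 15 and 123. Ccl21a of that list had 1 and 122 UMIs, with 119 of the metformin UMIs in 1 cell. Apart from Ccl21a, none of the genes named here went against the label in either library.

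**Figure D1:**
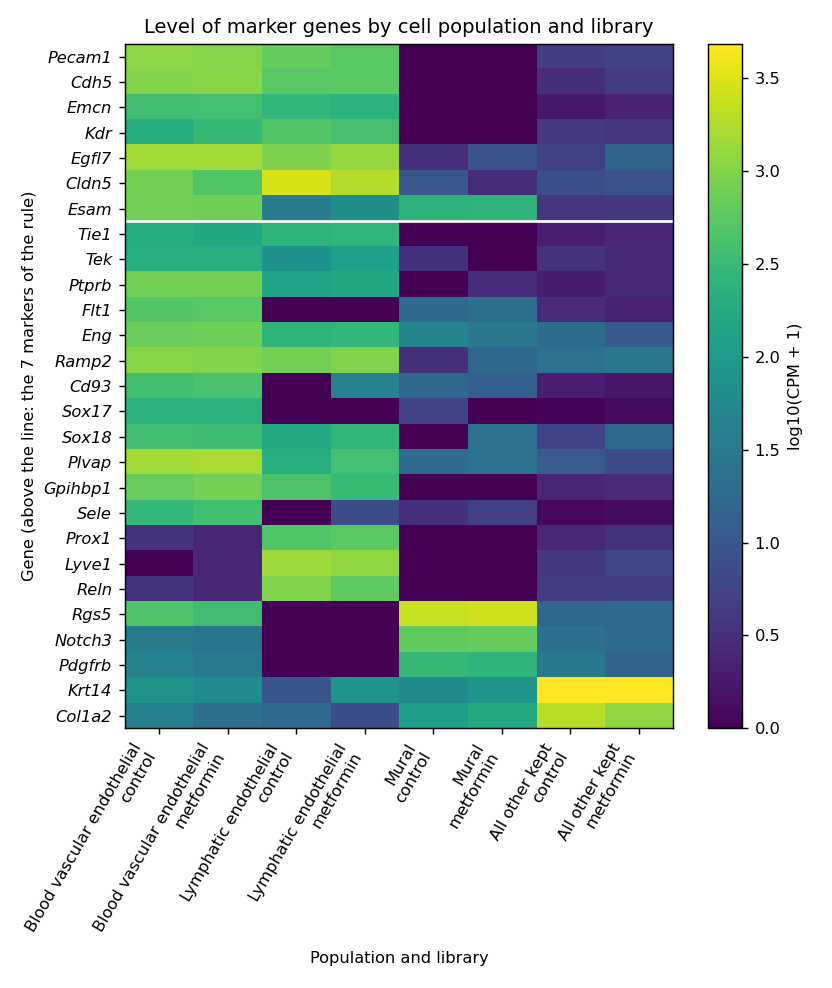
Level of 27 genes in each cell population and library, as the log10 of CPM plus 1 (colour); rows are genes and columns are populations. Genes above the white line selected the cells, Prox1 and Krt14 were used as upper limits, and endothelial genes such as Tie1, Tek and Ptprb are high in the endothelial columns and low in mural and all other kept cells.

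The threshold separated cells of different richness. Cells with exactly 3 of the selecting genes numbered 17 in control and 16 in metformin and showed a median of 6 and 8 of the 22 further endothelial genes. Cells just outside, with 2 selecting genes and every other limit met, numbered 11 and 15 and showed a median of 2 and 4. A small admixture of other cell types remained inside. At least 3 of 8 mural (pericyte and smooth muscle) genes were detected in 11 control and 15 metformin cells, and at least 20 UMIs of 9 keratinocyte genes in 2 and 6 cells. A doublet caller marked 2 and 7 of the endothelial cells, which were kept in the values below.

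Blood vascular endothelial cells accounted for 1.11% (0.925 to 1.32) of all kept cells in control, against 1.55% (1.33 to 1.79) in metformin. The share was 0.443 percentage points (0.143 to 0.745) higher in the metformin library, and with every cell thinned to 1500 UMIs the difference was 0.396 points (0.106 to 0.687). Lymphatic endothelial cells were at 0.441% and 0.665%. Mural cells, which wrap the vessels and were selected by at least 3 of 8 mural genes, were at 0.943% and 1.11%. Both of these shares were higher in metformin too, but their intervals overlapped between the libraries (0.329 to 0.580 and 0.526 to 0.829 for lymphatic cells, 0.775 to 1.14 and 0.926 to 1.31 for mural cells).

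The genes with the highest enrichment over the rest of the skin cells were ranked by the smaller of the folds of the libraries, so that each is high in both by this choice. Sele, the E-selectin that slows leukocytes on inflamed venules, was 1189.5-fold in control and 1159-fold in metformin above the other cells. Sox17, a transcription factor of arterial endothelium, was 2437-fold in control and 744-fold in metformin above them. Ptprb, the phosphatase that restrains Tie receptor signalling, was 871-fold in control and 499.5-fold in metformin above them. Gpihbp1, which anchors lipoprotein lipase on capillary endothelium, was 448-fold in control and 460.2-fold in metformin above them, and Fabp4, a fatty acid carrier, was 475-fold in control and 457-fold in metformin. The other genes of the 15 with the highest enrichment were Selp, C1qtnf9, Lhx6, Tmem252, Mecom, Adgrl4, Thrsp, Gkn3, Cytl1 and Syt15. These folds compare cells selected by their endothelial counts with the rest and are a description.

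The cells were then sorted by artery, capillary and vein gene lists, a cell taking the class of which it showed the most genes, at least 2 and more than of either other list. In control, 23 cells were artery-like (18%, 11.7 to 25.7), 56 capillary-like (43.8%, 35 to 52.8) and 32 vein-like (25%, 17.8 to 33.4). In metformin, 31 were artery-like (17%, 11.9 to 23.3), 75 capillary-like (41.2%, 34 to 48.7) and 63 vein-like (34.6%, 27.7 to 42). The intervals of the libraries overlapped in every class. At 1500 UMIs per cell the vein-like share was 31.6% and 35.5%, closer together than at full depth, whereas at 1000 UMIs per cell it was 21.5% (14.5 to 29.9) of 121 control and 34.5% (27.5 to 42.1) of 174 metformin cells, further apart. The remaining 17 and 13 cells took no class, and 12 and 24 of the class cells led by a single gene, so the classes are ranges and not sharp types.

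**Figure D2:**
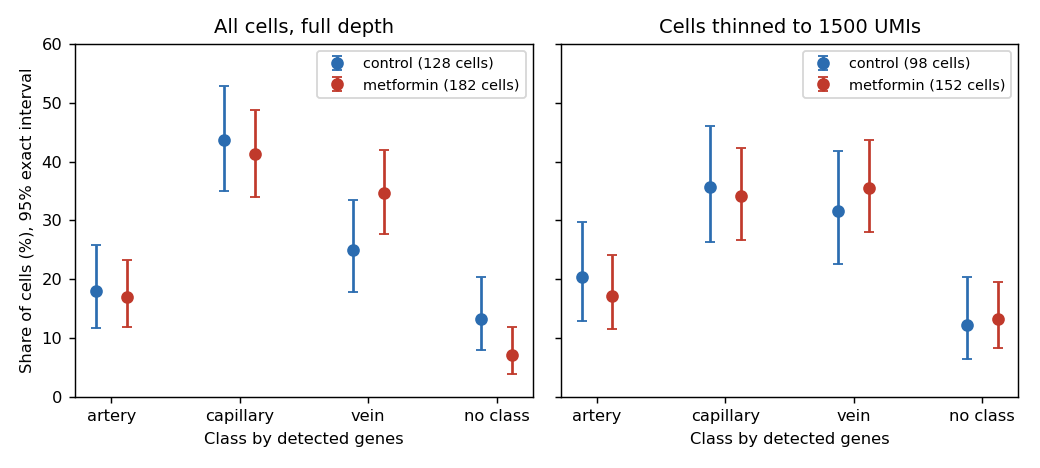
Share of blood vascular endothelial cells in each vessel class (y axis, percent, with exact 95% intervals), at full depth (left) and after thinning to 1500 UMIs (right), for control (blue) and metformin (red). The intervals of the libraries overlap in every class, and the vein-like shares of 25% and 34.6% become 31.6% and 35.5% at 1500 UMIs, and 21.5% and 34.5% at 1000 UMIs, which is not drawn.

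Genes outside the sorting lists were ranked for each class by the smaller of the class ratios of the libraries, so a gene that leads a class does so in both by this choice. Sele had 113 UMIs in vein-like control cells and 249 in vein-like metformin cells, and none in the artery-like and capillary-like cells of either. Lbp, the lipopolysaccharide-binding protein, had 43 and 68 UMIs in vein-like cells and none in artery-like and capillary-like cells. Nt5e, the ectoenzyme that makes adenosine, had 16 and 37 UMIs there and likewise none in artery-like and capillary-like cells.

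Gkn3 had 30 and 48 UMIs in artery-like cells and none in capillary-like and vein-like cells. Mgp, the matrix Gla protein that restrains calcification and bone morphogenetic protein signalling, was at 4136 and 1594 CPM in artery-like cells and at 42 and 13.6 CPM in capillary-like cells. Edn1, which codes for the vasoconstrictor endothelin-1, was at 1629.5 and 641 CPM in artery-like cells and at 48.9 and 45.5 CPM in capillary-like cells.

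Lpl, the lipase that Gpihbp1 anchors, was at 209.8 and 259 CPM in capillary-like cells, at 12.3 and 25.3 CPM in artery-like and at 38.6 and 20.2 CPM in vein-like cells. Clic5 and Mcf2l were also highest in capillary-like cells, with 31 and 31 UMIs and 35 and 53 UMIs in capillary-like cells and at most 6 UMIs in the artery-like or vein-like cells of a library. Before these, keratinocyte genes led the capillary-like class: Krt1, Krt77, Serpinb5, Dmkn, Krt10 and Krtdap were its first 6 genes by fold, which goes against its name. Cells with at least 20 UMIs of the keratinocyte list were 1 control cell, which held 1526 of the 1561 such UMIs in the class, and 3 metformin cells, which held 360 of 400. In an alternative added after seeing the data that left out these cells in every class, the first 4 genes were Mcf2l, Cxcl12, Lpl and Clic5.

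Between the libraries, 3337 genes with at least 50 UMIs over both were compared, and a gene was counted as higher or lower from a ratio of 1.5 on. Of these, 184 (5.51%) were at least 1.5-fold higher in metformin and 246 (7.37%) at least 1.5-fold lower, with a median log2 ratio of 0.02. Among the 859 genes at least 2-fold enriched in the endothelial cells of both libraries, 50 (5.82%) were higher and 83 (9.66%) lower, with a median of -0.04. The endothelial identity genes stayed within 1.5-fold: of 21 measured endothelial genes outside the selection none reached it in either direction, 11 lay above 1 and 10 below. Ptprb was at 803 and 782 CPM, Tek at 202 and 209.9 CPM and Plvap at 1484 and 1635 CPM. Furthest from 1 were Cd200 at 0.723 (0.616 to 0.851), Ecscr at 1.28 (1.06 to 1.56) and Podxl at 0.792 (0.649 to 0.967), whose intervals excluded 1. Of the 10 enriched genes with the lowest ratios, 7 were interferon-inducible, among them Gbp5, Gbp2, Gbp3 and Ifit3, and the 10 with the highest ratios included the capillary gene Rbp7 and the vein genes Lrg1 and Ackr1.

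**Figure D3:**
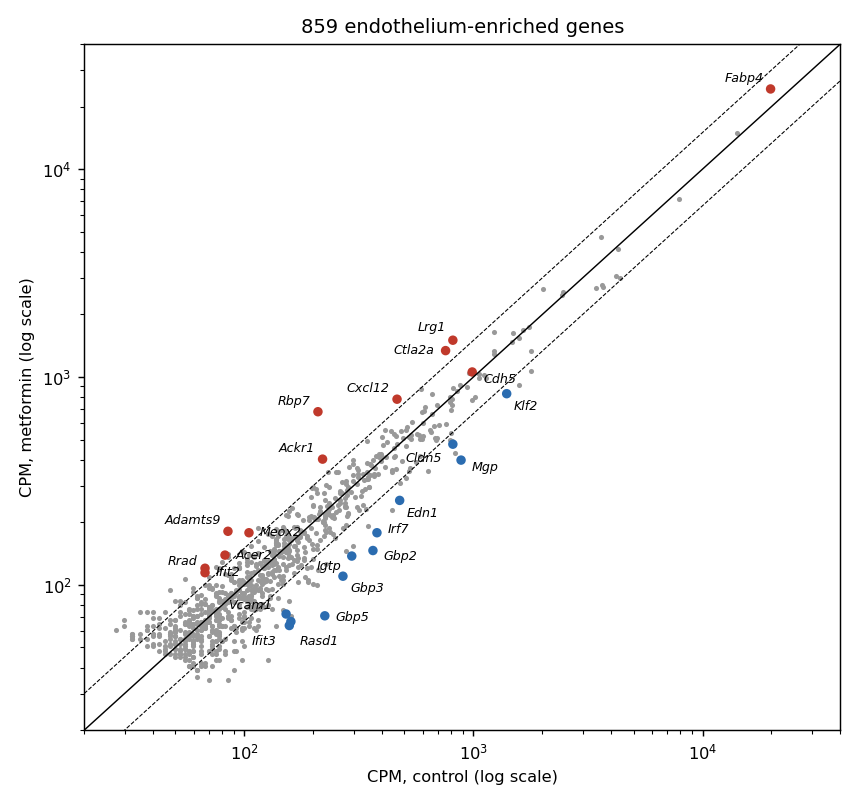
CPM in control (x axis) and metformin (y axis), both on log scales, of 859 genes enriched in blood vascular endothelial cells (points); the solid line is a ratio of 1 and the dashed lines ratios of 1.5 in either direction. Labelled genes below the diagonal (blue) include Gbp5, Gbp2, Klf2 and Edn1, those above (red) include Rbp7, Lrg1, Ackr1 and Cxcl12, and Cdh5 lies near the diagonal.

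Interferon-inducible genes were lower in metformin. Of the 19 genes of the interferon list 9 were at least 1.5-fold lower, 1 was at least 1.5-fold higher and the median log2 ratio was -0.55, beside 7.37%, 5.51% and 0.02 over all genes. Gbp2, a guanylate-binding protein of cell-autonomous immunity, was at 364 CPM in control against 146 in metformin, a ratio of 0.402 (0.308 to 0.521). Gbp5, of the same family and named by its rank among enriched genes, was at 224 CPM in control against 70.9 in metformin, a ratio of 0.316 (0.218 to 0.452). Gbp5 was the lowest of the enriched genes by the naming rule, and Gbp3, Gbp4 and Gbp7 had ratios of 0.408, 0.521 and 0.551. Guanylate-binding protein genes have near-identical copies, so that the counting could split their reads.

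Of the interferon regulatory factors Irf7 was lower and Irf1 lay near 1. Irf7, which amplifies the type I response, was at 379 CPM in control against 178 in metformin, a ratio of 0.47 (0.367 to 0.60). Irf1, another interferon regulatory factor, was at 304 and 265 CPM, and its interval included 1. Igtp, an immunity-related GTPase, was at 294 CPM in control against 138 in metformin, a ratio of 0.467 (0.353 to 0.618). Ifi27l2a had the lowest ratio of the list at 0.199 (0.155 to 0.255), from 646 and 129 CPM.

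Not every member was lower. Ifit3 was at 159.6 CPM in control against 66.6 in metformin, a ratio of 0.417 (0.279 to 0.619), whereas its neighbours in function Ifit1 and Ifit2, which bind foreign RNA, were at 1.18 (0.952 to 1.48) and 1.7 (1.08 to 2.74). Ifit2 was detected in 16 control and 31 metformin cells. Ifitm2 and Ifitm3, which block virus entry, were at 1.02 and 0.909, and Isg15, a ubiquitin-like modifier, at 0.863 (0.729 to 1.02).

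The difference was visible per cell. After thinning, a Gbp5 UMI was found in 36.7% (27.2 to 47.1) of control against 11.8% (7.17 to 18.1) of metformin cells, beside 47.7% and 20.3% without thinning. An Igtp UMI was found in 35.7% (26.3 to 46) of control against 15.8% (10.4 to 22.6) of metformin cells. In lymphatic endothelial cells, whose median depth was 2009 and 2529 UMIs before thinning, a Gbp5 UMI was found in 2.78% (0.0703 to 14.5) of control against 4.62% (0.962 to 12.9) of metformin cells, so the control blood vascular share lay above the lymphatic one, whereas the metformin intervals of both cell types overlapped. The number of the 19 genes seen in a thinned cell had a median of 10 in control (3 to 14) and 8 in metformin (2 to 15), so the cells of the libraries overlapped.

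**Figure D4:**
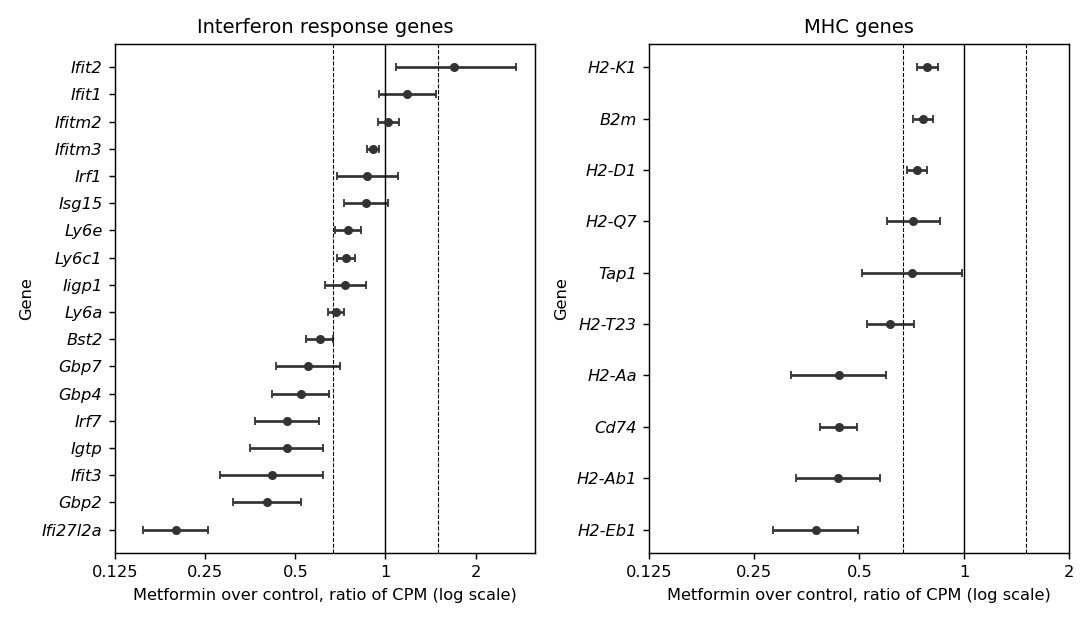
Ratio of metformin over control CPM (x axis, log scale, with exact 95% intervals) of 18 of the 19 interferon response genes and the 10 major histocompatibility complex genes in blood vascular endothelial cells; the solid line marks 1 and the dashed lines 1.5-fold. In the interferon list 15 of 18 points lie below 1, with Ifit1, Ifit2 and Ifitm2 above it, and all 10 points of the other list lie below 1.

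The promoters of these genes were read because interferon acts through short DNA elements. The interferon-stimulated response element is bound by complexes that hold interferon regulatory factors, and was searched as a pair of GAAA with any 2 bases between them. The gamma-activated site, an element of the interferon-gamma response, was searched as TTCNNNGAA, which reads the same on the opposite strand. Both were searched on both strands in windows of 300 bases, 250 before to 50 after the RefSeq transcript start (GRCm38.p6). The first motif was in 3.49% of 27025 promoters and in 9 of the 13 promoters found for the interferon list, and the second in 8.47% of all and in 6 of the 13. Of the 11 promoters found for the further endothelial genes none held either motif. Of the 2657 promoters found for the genes compared between the libraries 9.52% held at least 1 of them, and 11 promoters are too few to tell none apart from that share. Of the 8 promoters found for the major histocompatibility complex genes 2 held the first motif and none the second. The following 4 are shown because their genes were among the lowest of the enriched genes in metformin; each is written 5′ to 3′ along its gene, and capitals mark the motif matches.
Gbp2, chr3:142620413-142620712, plus strand: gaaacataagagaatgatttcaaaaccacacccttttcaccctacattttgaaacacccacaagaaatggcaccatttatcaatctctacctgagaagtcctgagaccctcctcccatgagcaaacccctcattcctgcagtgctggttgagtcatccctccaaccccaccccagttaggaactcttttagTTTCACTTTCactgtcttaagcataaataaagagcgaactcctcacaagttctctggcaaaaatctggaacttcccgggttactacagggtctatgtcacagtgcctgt
Gbp5, chr3:142496684-142496983, plus strand: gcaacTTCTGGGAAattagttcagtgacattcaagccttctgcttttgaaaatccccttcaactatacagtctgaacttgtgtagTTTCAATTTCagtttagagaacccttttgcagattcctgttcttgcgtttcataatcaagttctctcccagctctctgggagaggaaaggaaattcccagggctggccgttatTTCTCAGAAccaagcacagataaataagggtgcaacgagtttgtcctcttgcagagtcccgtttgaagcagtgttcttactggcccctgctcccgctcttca
Igtp, chr11:58199306-58199605, plus strand: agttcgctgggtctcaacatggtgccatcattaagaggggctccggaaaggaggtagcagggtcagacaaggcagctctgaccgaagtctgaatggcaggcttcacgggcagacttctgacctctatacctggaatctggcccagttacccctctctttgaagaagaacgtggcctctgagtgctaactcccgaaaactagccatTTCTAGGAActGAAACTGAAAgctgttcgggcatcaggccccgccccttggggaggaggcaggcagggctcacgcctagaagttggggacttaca
Ifit3, chr19:34583279-34583578, plus strand: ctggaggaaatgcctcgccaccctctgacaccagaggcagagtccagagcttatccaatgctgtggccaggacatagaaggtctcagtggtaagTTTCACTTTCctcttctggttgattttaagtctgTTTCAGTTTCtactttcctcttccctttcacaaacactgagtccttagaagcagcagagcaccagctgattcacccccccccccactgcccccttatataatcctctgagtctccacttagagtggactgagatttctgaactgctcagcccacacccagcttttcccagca
Gbp2 holds 1 match of the first motif, read on the opposite strand, and none of the second. Gbp5 holds 1 match of the first and 2 of the second. Igtp holds 1 of each, close together, and Ifit3 holds 2 of the first motif. The promoter of Irf7, whose gene was also lower, held no match in its window. A match is a run of letters and not shown to be bound here.

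Antigen presentation genes were lower as well. All 10 genes of the major histocompatibility complex (MHC) list had ratios below 1, 5 of them at least 1.5-fold lower, and the median log2 ratio was -0.60. Over all genes 7.37% were at least 1.5-fold lower and the median was 0.02. Cd74, the invariant chain that guides class II molecules, was at 1509 CPM in control against 659 in metformin, a ratio of 0.437 (0.386 to 0.494). The class II chain genes H2-Aa, H2-Ab1 and H2-Eb1 had ratios of 0.437, 0.435 and 0.375. The class I genes H2-K1 and H2-D1 and their partner B2m were less far from 1, at 0.783, 0.731 and 0.762. H2 genes resemble each other closely, so their reads could also be split.

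The class II genes were carried by part of the cells. Before thinning Cd74 was found in 59 control and 82 metformin cells, which were 46.1% and 45.1%. The highest single cell held 50 of the 605 control and 27 of the 455 metformin UMIs. After thinning Cd74 was found in 50% (39.7 to 60.3) of control against 35.5% (27.9 to 43.7) of metformin cells, with overlapping intervals. Lymphatic cells were at 2.78% (0.0703 to 14.5) of control against 0% (0 to 5.52) of metformin cells. Leukocytes express these genes strongly. Ptprc was at 0 by the selection, and Cd3e and Trdc at 0, Lyz2 at 1 and 4 UMIs and C1qa at 0 and 3 UMIs were at or near 0 in both libraries.

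The lower levels held within each vessel class. At a minimum of 20 UMIs, 14 of 17 interferon genes were below 1 in artery-like cells, 18 of 19 in capillary-like cells and 18 of 19 in vein-like cells, with median log2 ratios of -0.77, -0.78 and -0.84. Over all genes at this minimum 744 of 1626, 1444 of 3032 and 1551 of 3069 were below 1. The MHC genes were below 1 in 10 of 10 cases in every class. Cd74 was at 3506 and 793 CPM in artery-like cells, 496 and 150 CPM in capillary-like cells and 1839 and 1082 CPM in vein-like cells. Capillary-like cells had the lowest Cd74 level of the classes in each library, and 1 control cell held 38 of their 71 UMIs. Without the highest cell of each library the levels there were 244 and 105 CPM.

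The direction was not particular to blood vascular endothelium. In lymphatic endothelial cells 6 of 7 measured interferon genes were below 1 (median -0.31) and in mural cells 6 of 7 (median -0.39). In all other kept cells 19 of 19 were below 1, with a median of -1.03, further from 0 than in the endothelium. Over all genes 618 of 1339 were below 1 in lymphatic, 1331 of 2815 in mural and 6976 of 15145 in other cells. Gbp2 was at 0.455 (0.414 to 0.50) and Igtp at 0.478 (0.416 to 0.549) in those other cells, beside 0.402 and 0.467 in the endothelial cells. Both genes were under the minimum of 50 UMIs in lymphatic and in mural cells. There Gbp2 was at 1.07 (0.402 to 3.31) and 1.08 (0.574 to 2.04), and Igtp at 2.26 (0.504 to 20.8) and 1.38 (0.397 to 5.35). Each of these intervals included 1, so a lower level of these genes was not seen there. Gbp7, also under the minimum, was at 0.358 (0.177 to 0.72) in lymphatic cells. The MHC medians were -0.33, -1.95 and -0.67 in the lymphatic, mural and other cells. The mural value rests on few cells, since 1 control cell held 216 of the 221 Cd74 UMIs and 1 held 62 of the 63 H2-Aa UMIs. The part of free RNA from other cells was not tested.

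Genes of flow sensing and vessel tone were lower in part. Of 8 measured genes of the shear stress list 3 were at least 1.5-fold lower and none higher, with a median log2 ratio of -0.43. Over all genes 7.37% were lower and 5.51% higher, with a median of 0.02. Klf2, the transcription factor that laminar flow induces in endothelium, was at 1397 CPM in control against 831 in metformin, a ratio of 0.595 (0.529 to 0.67). Klf4, which shares many of its targets, was at 629 CPM in control against 431 in metformin, a ratio of 0.686 (0.578 to 0.815). Their target Nos3, the endothelial nitric oxide synthase, was at 0.825 (0.535 to 1.28), and Thbd, thrombomodulin, at 0.799 (0.568 to 1.13), so the intervals of both targets included 1. Klf2 was below 1 in artery-like, capillary-like and vein-like cells, at 0.606 (0.479 to 0.765), 0.553 (0.45 to 0.679) and 0.629 (0.501 to 0.793). In lymphatic cells it was at 0.979 (0.754 to 1.28) and in all other cells at 0.581 (0.559 to 0.604).

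Edn1 differed most where it was most abundant, in the artery-like cells. Over all endothelial cells it was at 476 CPM in control against 255 in metformin, a ratio of 0.535 (0.433 to 0.66). In artery-like cells the ratio was 0.393 (0.293 to 0.525), and in vein-like cells 0.967 (0.648 to 1.47). A single control cell held 36 of the 132 artery-like UMIs. Without the highest cell of each library the ratios were 0.462 (0.333 to 0.639) in artery-like and 1.25 (0.774 to 2.08) in vein-like cells. After thinning an Edn1 UMI was found in 29.6% (20.8 to 39.7) of control against 21.7% (15.4 to 29.1) of metformin cells. Without thinning the shares were 33.6% and 33.5%. Over all other cells Edn1 was at 0.743 (0.67 to 0.825). The other measured genes of the tone list stayed within 1.5-fold, among them Ece1, which activates endothelin, at 1.15 and Ace, the angiotensin-converting enzyme, at 1.1. The difference between the classes was not tested.

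Cyp1a1, a target of the aryl hydrocarbon receptor, was the gene of the shear stress list with the lowest ratio. It had 61 UMIs in 26 control cells and 8 UMIs in 5 metformin cells, a ratio of 0.0761 (0.0315 to 0.16). Capillary-like cells held 40 of the control and 4 of the metformin UMIs. After thinning a UMI was found in 15.3% (8.83 to 24) of control against 1.32% (0.16 to 4.67) of metformin cells, and in none of 36 control and 65 metformin lymphatic cells, with intervals up to 9.74% and 5.52%. Over all other cells Cyp1a1 had 183 and 127 UMIs, a ratio of 0.535 (0.424 to 0.675). Cyp1b1 of the same family had 1 and 3 UMIs in the endothelial cells, too few to compare.

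**Figure D5:**
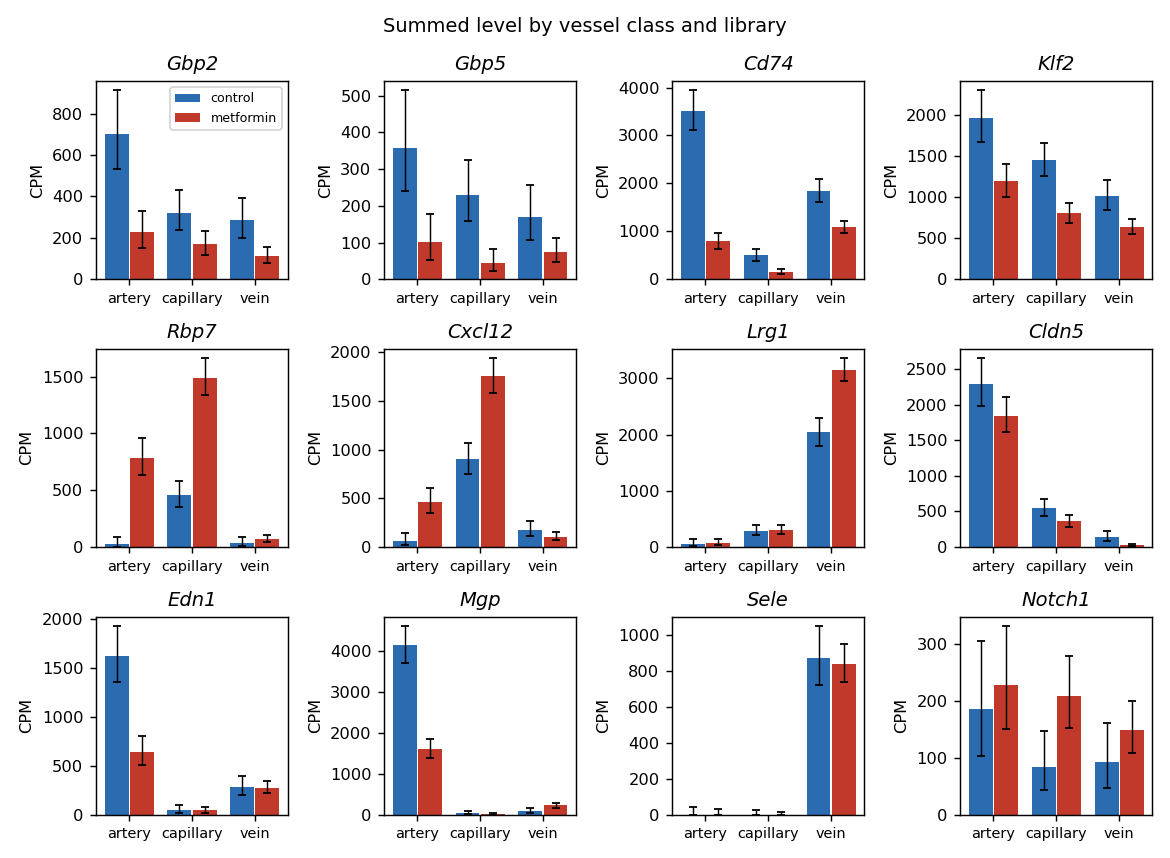
Summed CPM (y axis, from 0, own scale per gene) of 12 genes in artery-like, capillary-like and vein-like cells of control (blue) and metformin (red), with exact 95% counting intervals. Gbp2, Gbp5, Cd74 and Klf2 are lower in metformin in every class, Edn1 in the artery-like class, Rbp7 and Cxcl12 are higher in the artery-like and capillary-like classes, and of the 3 classes Sele has UMIs in the vein-like class alone.

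Cell contact genes stayed within 1.5-fold with 1 exception. Of 9 measured junction genes only Cldn5 passed 1.5-fold, beside 7.37% lower and 5.51% higher over all genes. The list still leaned downward, with 8 of the 9 below 1 and a median log2 ratio of -0.18. Its summed ratio, Cldn5 included, was 0.886 (0.837 to 0.937). Over all genes 1587 of 3337 were below 1, with a median of 0.02. Cldn5 was at 813 CPM in control against 475 in metformin, a ratio of 0.584 (0.499 to 0.683), and it is also a selecting gene. Its level was highest in artery-like cells of both libraries, at 2296 and 1847 CPM. Its ratio was 0.804 (0.658 to 0.983) in artery-like, 0.659 (0.475 to 0.912) in capillary-like and 0.161 (0.0571 to 0.399) in vein-like cells, where it had 19 and 7 UMIs, the 7 in 1 cell. With the classes given equal weight its log2 ratio was -0.42 in place of -0.78. Cdh5 was at 1.07 (0.946 to 1.21) and Jam2 at 0.768 (0.604 to 0.977). In lymphatic cells Cldn5 was at 0.638 (0.557 to 0.732).

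Rbp7 had the highest ratio of the enriched genes. It codes for a retinol-binding protein of capillary and fat endothelium, and was at 209.5 CPM in control against 680.5 in metformin, a ratio of 3.25 (2.57 to 4.15). In capillary-like cells it was at 454 and 1491 CPM, and in artery-like cells it had 2 and 93 UMIs. After thinning it was found in 17.3% (10.4 to 26.3) of control against 27% (20.1 to 34.8) of metformin cells, so the intervals of the shares overlapped while the summed level differed, and the highest metformin cell, an artery-like one, held 55 of the 470 UMIs. Over all other cells Rbp7 had a ratio of 0.841 (0.701 to 1.01).

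Cxcl12, the chemokine that guides cells through Cxcr4, was at 464 CPM in control against 782 in metformin, a ratio of 1.69 (1.42 to 2.0). In capillary-like cells the ratio was 1.95 (1.59 to 2.39) and in vein-like cells 0.607 (0.344 to 1.09). Over all other cells, which include fibroblasts, it was at 0.587 (0.562 to 0.614), the opposite side of 1. Cxcl1, a neutrophil attractant, was at 127 and 39.1 CPM in 12 control and 12 metformin cells, and 1 cell held 21 of the 51 UMIs in control. Cxcl10, an interferon-inducible chemokine, was at 0.865 (0.676 to 1.11).

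Of the growth factor receptors, all 4 measured genes of the VEGF receptor list were above 1, none past 1.5-fold, and their summed ratio was 1.2 (1.07 to 1.35). Without Kdr, a selecting gene, the sum was 349 and 682 UMIs, a ratio of 1.13 (0.996 to 1.29) with an interval that included 1. Kdr, the main signalling receptor, was at 199.5 CPM in control against 297 in metformin, a ratio of 1.49 (1.14 to 1.95). Flt1 was at 1.1 (0.926 to 1.31) and the co-receptors Nrp1 and Nrp2 at 1.1 (0.842 to 1.45) and 1.35 (0.978 to 1.89). Of the angiopoietin and Tie pathway none of 4 genes passed 1.5-fold, and Tek, the angiopoietin receptor, was at 1.04 (0.786 to 1.38).

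In the Notch pathway, which sets arterial fate and holds back sprouting, the members did not move together. Notch1 was at 115 CPM in control against 188 in metformin, a ratio of 1.64 (1.16 to 2.35), and its ligand Dll4 at 1.54 (0.862 to 2.86). The ligand gene Dll1 was at 0.625 (0.353 to 1.11) and the target Hes1 at 0.716 (0.548 to 0.937). Of 9 measured genes 2 were higher, 1 lower and 6 between, beside 5.51% higher and 7.37% lower over all genes. A Notch1 UMI was found after thinning in 17.3% (10.4 to 26.3) of control against 31.6% (24.3 to 39.6) of metformin cells. Over all other cells Notch1 was at 1.42 (1.36 to 1.48).

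Vein genes were higher in sum. The 8 genes of the list had a median log2 ratio of 0.16, 2 were at least 1.5-fold higher, and their summed ratio was 1.36 (1.27 to 1.46). The sum leaned on these 2, Lrg1 and Ackr1. They held 326 and 88 of the 1151 control UMIs and 1038 and 278 of the 2700 metformin UMIs. Over all genes 5.51% were at least 1.5-fold higher. Lrg1, a secreted glycoprotein that modifies transforming growth factor signalling in vessels, was at 813 CPM in control against 1503 in metformin, a ratio of 1.85 (1.63 to 2.1). Ackr1, the chemokine-binding receptor of venules, was at 219 CPM in control against 402 in metformin, a ratio of 1.83 (1.44 to 2.36). Within the vein-like class these ratios were 1.54 (1.34 to 1.78) and 1.39 (1.09 to 1.79). Both genes are on the list that sorted cells into this class, so these values are a description. Lrg1 was also higher in all other cells, at 2.08 (1.76 to 2.46), whereas Ackr1 was at 14.1 CPM in control and 4.67 in metformin there. With the classes given equal weight the log2 ratios of Lrg1 and Ackr1 were 0.56 and 0.45 in place of 0.89 and 0.88. The list median was then -0.09. What the class shares add to these differences was not tested. Nr2f2, the transcription factor of venous identity, was at 0.777 (0.569 to 1.06).

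Among the leukocyte adhesion genes, which act in sequence on venules, the selectins and Vcam1 lay on opposite sides of 1. Selp, the P-selectin kept in storage granules, was at 197 CPM in control against 294 in metformin, a ratio of 1.49 (1.14 to 1.96), and Sele at 1.28 (1.02 to 1.61). In vein-like cells Selp was at 1.07 (0.821 to 1.42) and Sele at 0.961 (0.767 to 1.21). Selp is on the vein list that sorted the cells, and Sele is not. Vcam1, the ligand for integrins on lymphocytes and monocytes, was at 152 CPM in control against 72.4 in metformin, a ratio of 0.476 (0.321 to 0.703), and Icam1 was at 1.1 (0.832 to 1.47). Vcam1 was below 1 in artery-like and in vein-like cells, at 0.566 (0.334 to 0.953) and 0.416 (0.218 to 0.794). It was lower in metformin in all other cells too, at 20.4 CPM in control against 6.64 in metformin, so its direction was not particular to the endothelium.

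Other enriched genes with high ratios were Adamts9, a secreted protease, at 2.13 (1.45 to 3.22), Ctla2a, a cysteine protease inhibitor, at 1.77 (1.55 to 2.02), Meox2, a homeobox factor of capillary endothelium, at 1.7 (1.19 to 2.47), Acer2, a ceramidase, at 1.69 (1.13 to 2.59), and Rrad, a small GTPase, at 1.78 (1.14 to 2.87). Slco2a1, the prostaglandin transporter, was at 59.9 and 177 CPM and was found after thinning in 7.14% (2.92 to 14.2) of control against 19.7% (13.7 to 27) of metformin cells. Rasd1, a Ras-related gene, was at 0.405 (0.269 to 0.605) and Mgp at 0.451 (0.384 to 0.529). Of the 354 Mgp UMIs in control, 91 were in 1 cell, and the mean of each cell's CPM gave Mgp a log2 ratio of -0.41 in place of -1.15. Several of these genes lay on the same side of 1 in all other cells. There Adamts9 was at 2.04 (1.76 to 2.38), Acer2 at 11.5 and 20.2 CPM, Slco2a1 at 35.8 and 51.3 CPM and Rasd1 at 30.8 and 9.68 CPM. On the opposite side there were Ctla2a at 230 and 197 CPM, Meox2 at 4.67 and 2.3 CPM, Rrad at 17.1 and 13.6 CPM and Mgp at 26 and 27.1 CPM.

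Matrix and lipid genes leaned upward without passing the fold. Over all genes 1750 of 3337 were above 1, with a median log2 ratio of 0.02. Of 12 measured basement membrane genes 10 were above 1 and none passed 1.5-fold, with a median log2 ratio of 0.18. In lymphatic cells 5 of 9 of these genes were above 1 (median 0.11), in mural cells 6 of 11 (median 0.004). In all other kept cells 5 of 14 were, with a median of -0.21, the opposite side of 0. Col4a1, a chain of type IV collagen, was at 1.35 (1.12 to 1.63) and Sparc, a matrix glycoprotein, at 1.39 (1.25 to 1.54). Of 7 measured lipid uptake genes 6 were above 1. Fabp4 was at 19819.5 CPM in control against 24304 in metformin, a ratio of 1.23 (1.19 to 1.26), and Gpihbp1 was at 1.26 (1.09 to 1.46). Cd36, the fatty acid translocase, was at 0.988 (0.899 to 1.09), with an interval that included 1.

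Genes of energy metabolism, which metformin is known to touch through complex I of the respiratory chain and AMP-activated kinase, were measured in part. Over all genes 5.51% were at least 1.5-fold higher and 7.37% lower. Of 15 complex I genes 1 was at least 1.5-fold higher, 12 were above 1 and the median log2 ratio was 0.06. Of 12 glycolysis genes 1 was higher, which was Gapdh at 1.52 (1.29 to 1.78), and 1 lower, which was Pfkfb3, a regulator of endothelial glycolysis, at 0.551 (0.342 to 0.886). Only 2 of 14 genes of the AMPK and energy stress list had enough counts: Stk11, the upstream kinase, was at 0.967 (0.603 to 1.58), and Txnip, which holds back glucose uptake, was at 1586 CPM in control against 912 in metformin, a ratio of 0.575 (0.514 to 0.643). Txnip was also below 1 in lymphatic cells, at 0.524 (0.45 to 0.61). Of 6 measured hypoxia genes none passed 1.5-fold.

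Cell division genes were sparse. The 16 genes summed to 54 UMIs in 31 control cells and 171 UMIs in 73 metformin cells, a ratio of 1.84 (1.35 to 2.54). Tyms, which makes thymidylate for DNA synthesis, had 5 and 40 UMIs, and Mki67 4 and 9 UMIs. Pcna, the sliding clamp of replication, had 19 and 35 UMIs and a ratio close to 1. Over all other cells Tyms was at 2.46 (2.34 to 2.58). Stmn1, a microtubule regulator of dividing cells, had 19 and 86 UMIs in the endothelial cells and was at 3.69 (3.63 to 3.75) over the other cells.

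Genes of other cell types differed between the libraries inside the selected cells. The 9 keratinocyte genes summed to 4442 CPM in control and 806 CPM in metformin, and a single control cell held 1526 of the 1781 control UMIs. The 5 genes that the naming rule gave as lowest over all genes, Sbsn, Krt77, Calm4, Cst6 and Krtdap, had between 90 and 503 of their control UMIs in their highest cell. Likewise 119 of the 122 metformin UMIs of the lymphatic chemokine Ccl21a, the highest by that rule, were in 1 cell. The 12 mural genes summed to 1551 and 1593 CPM and the 8 fibroblast genes to 267 and 152 CPM. Hair shaft and root sheath keratins had no UMI in control and 37 UMIs over 11 metformin cells. Without the cells that held at least 3 mural genes or at least 20 keratinocyte UMIs, which left 115 and 161 cells, the share difference was 0.376 points (0.0929 to 0.662). In those remaining cells the median log2 ratio was -0.62 for the interferon list and -0.61 for the MHC list.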

How the data were processed

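Skin single-cell libraries labelled control and metformin were analysed. The authors deposited whole-number UMI counts for each gene in each barcode; per the file headers they come from Cell Ranger 4.0.0, on GRCm38 (mm10) according to the submitters' processing notes. The label text on extraction names a different species, whereas the gene identifiers are of mouse. Counting settings were not given in the sources used here.

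Barcodes with at least 800 UMIs, 300 genes and at most 20% mitochondrial counts were kept, and endothelial cells were selected by the rule stated in the report. Counts were summed over cells and scaled to 1000000 (CPM). Ratios have exact conditional binomial intervals and shares exact Clopper-Pearson intervals, at 95%. UMIs of 1 cell are not independent, and a sum can rest on few cells. Scrublet in scanpy 1.11.5 called doublets at an expected rate of 8% (3.48% and 5.32% of cells), which were kept in the main values. Cells were thinned without replacement. The ratio script was tested on simulated data. Python 3.11.15, numpy 2.4.6, scipy 1.17.1 and pandas 2.3.3 were used, gene coordinates are from GENCODE M21 and promoters from RefSeq.

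The cells, the 38 gene lists and the tests were chosen with earlier results of these data known. Named genes were the selecting genes, the 15 most enriched, the 10 highest and 10 lowest ratios among enriched genes and the 5 of each among all genes (at least 100 UMIs and 50 CPM), and leading or central list members. Class genes and levels by class were added after values were seen. Alternatives were other filters, doublet removal, 4 selecting genes, other limits, mean CPM per cell, rescaling and other minimum counts. Values of 1 gene of the interferon list are not reported here, but it stays in the counts and medians of the list.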

Additional observations from a re-analysis of the deposited data

How the results depend on the processing

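No paired analysis was possible because each agent has 1 library. Leaving out a library was likewise not possible, and no value here measures the spread between animals. The share difference kept its direction under all 6 alternatives, between 0.376 and 0.659 points. Of 236 list medians computed under alternatives 226 moved by less than their counting interval, as did 1264 of 1344 gene ratios, 72 moved further and 8 reversed. The alternatives without cells holding genes of other types, and with artery-like, capillary-like and vein-like cells weighted equally, were chosen after seeing the data, as were the levels by class without the highest cell and the receptor sum without Kdr.

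With equal class weights the median log2 ratio was -0.088 for vein genes and 0.11 for immediate early genes, and Acta2 (0.769) and Myh11 (0.584) reversed. Without cells holding genes of other types the immediate early median was 0.023. With the mean of each cell's CPM the interferon median was -0.41 and 279 genes were at least 1.5-fold higher. The keratinocyte median, -1.35, became 0.017 with at least 4 selecting genes, 1.90 with at most 3000 genes and 8% mitochondrial counts, -4.35 without doublets, -2.48 with at most 3 UMIs of keratins and of collagens, -0.745 with the mean of each cell's CPM and -2.97 at a minimum of 100 UMIs. The cause was not tested. With at least 4 selecting genes Krt1 was at 1.56, Krt10 at 1.48 and Krt77 at 0.131, and with at most 3000 genes Krt1 was at 1.86, Krt10 at 1.52 and Krtdap at 1.93. At a minimum of 20 UMIs, where fewer counts give wider scatter, 645 genes were higher and 793 lower (100 and 169 of the enriched genes), and at 100 UMIs 64 and 96 (19 and 42).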

Other observations

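The artery-like cells of the libraries differed in genes outside the artery list. Fabp4 was at 3284 and 10583 CPM in artery-like cells of control and metformin, and at 26528 and 28366 CPM in capillary-like cells. Gpihbp1, Rbp7 and Cxcl12 had 4 and 30 UMIs, 2 and 93 UMIs and 5 and 55 UMIs in artery-like cells of control and metformin. Gpihbp1 is on the capillary list and so took part in the sorting. The mural genes Rgs5 and Tagln had 5 and 70 UMIs and 14 and 96 UMIs there. Cytl1, a secreted cytokine-like protein, was at 988 and 186 CPM in artery-like cells and at 239.6 and 263 CPM in vein-like cells. A single control cell held 34 of the 80 artery-like Cytl1 UMIs and another 18 of the 31 vein-like ones, and without the highest cell of each library Cytl1 was at 606 and 153 CPM in artery-like and at 107 and 234 CPM in vein-like cells. The classes held 23 and 31 cells, and what these genes owe to capillary or mural RNA in artery-like cells was not tested.

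The background of the list counts in this paragraph is 5.51% of all genes higher and 7.37% lower. The artery list had 1 gene higher and 1 lower of 9 measured (median log2 ratio -0.04), with the gap junction gene Gja5 at 0.58 (0.338 to 0.997). The capillary list had 2 higher and none lower of 10 (median -0.31), with the cell cycle regulator Rgcc at 0.674 (0.559 to 0.815). Of 16 endothelial transcription factors 1 was lower, Klf2, and 12 lay below 1 (median -0.13). Of 9 genes of the TGF-beta and BMP pathway 1 was lower, the signal transducer Smad1 at 0.611 (0.418 to 0.894). Of 8 caveolae and transport genes none passed 1.5-fold, and of 5 coagulation genes 1 was lower, Thbs1 at 0.618 (0.367 to 1.04). Of 12 tip cell and angiogenesis genes only Ets1 and Plxnd1 had enough counts, at 0.902 and 0.967. Of 15 immediate early genes, which tissue dissociation induces, none passed 1.5-fold, with a median of -0.28. Of 10 heat shock genes 1 was lower, Hspa1b at 0.658 (0.536 to 0.809). Glia and melanocyte genes summed to 8 UMIs in each library, red cell genes to 8 and 15, and skeletal muscle genes to 13 and 8.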
